A study of Mus musculus with 12 samples.

Results

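The genes described here encode enzymes and remodelers that act on chromatin. They are the histone deacetylases and sirtuins, the lysine demethylases, methyltransferases and acetyltransferases, the DNA methyltransferases and TET dioxygenases, the Ezh methyltransferases, and the Smarc and Chd remodelers. Members were taken by gene symbol alone (symbols beginning with Hdac, Kdm, Kmt, Dnmt or Kat and a digit, or with Smarc, together with Tet1 to Tet3, Ezh1 and Ezh2, Sirt1 to Sirt7 and Chd1 to Chd9), which gave 92 of the 48440 features measured. By the annotation, 81 of them are protein-coding genes, 8 pseudogenes and 3 antisense genes. Expression was measured by RNA-sequencing in the pillar and the Deiters' cells, supporting cells of the organ of Corti, the sensory epithelium of the mammalian cochlea. All cells came from adult mice of the CBA/J strain at an age of 28 to 32 days, for which no treatment or engineered allele is given, were recognized by shape after enzymatic digestion and were drawn one by one into a suction pipette. Each cell type had 3 libraries of about 1000 cells pooled from several animals, and each library was sequenced in 2 lanes. The methods describe collection of both cell types from the same animals, but which libraries share animals is not stated, so p-values measure only the spread between these libraries.

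DNA is wound around histones, and enzymes that add or remove acetyl and methyl groups on histone tails change how tightly that packing holds and which proteins bind to it. Acetylation and methylation of lysine 4 of histone H3 mark active promoters and enhancers, whereas methylation of lysine 27 by the Polycomb repressive complex and methylation of cytosine in DNA are linked to silent genes. Remodelers of the SWI/SNF (BAF), ISWI and CHD families use ATP to slide or evict nucleosomes. In the inner ear these enzymes have been studied because supporting cells of the adult mammalian cochlea do not replace lost hair cells, and chromatin state is one of the layers of gene control examined for that limit.

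The values are RPKM (reads scaled to the length of the transcript and the depth of the lane), averaged over the lanes of a library. Worked out from the steps of these values rather than counted, the libraries held 18641354 to 21557584 reads. The lanes fell into 2 sets of 6 by the main component of their deviations from the mean of their cell type, which held 83.7% of that variance. Both cell types were in each set, but 1 set held more pillar cell lanes and the other more Deiters' cell lanes. Some libraries had a lane in each set, so the spread between libraries includes this shift. Among the members, Hdac1, Ezh2, Smarcd1 and Kdm2b were 1.15- to 1.19-fold higher in the lanes of 1 set in both cell types, while Kdm6b and Kmt2b were at 0.811 to 0.875 times their level in the other. Markers of supporting cells were abundant throughout, with none of 10 listed at 0 and summed levels of 24974 to 25748 RPKM in pillar cells and 44934 to 48454 in the Deiters' cells. Transcripts of other cells were present, and some but not all of the lists differed in level between the cell types. Macrophage markers overlapped, at summed levels of 17.6 to 19.8 RPKM in pillar cells and 16.4 to 18.5 in Deiters' cells. Bone and fibrocyte markers were close, at 1111 to 1128 and 1032 to 1051 RPKM. Neuron and glia markers summed to 30.9 to 32.5 and 54.3 to 57.9 RPKM, and those of the stria and melanocytes to 52.7 to 53.1 and 38.7 to 41.1. Summed over 12 hair cell markers, the level was 734 to 773 RPKM in the pillar cell libraries and 219 to 225 in the Deiters' cell libraries. Of the 11 hair cell markers tested, 9 were called higher in pillar cells, versus 1, Myo6, in Deiters' cells, while Atoh1 was listed at 0 in all 6 libraries. Neutrophil markers summed to 531 to 549 RPKM in pillar cells against 259 to 287 in Deiters' cells. None of the 10 was at 0 in either cell type. They did not go one way: limma called 8 toward pillar cells, while Elane and Mpo were called toward Deiters' cells. B cell markers summed to 58.3 to 63.2 RPKM in pillar cells and 19.1 to 20.3 in Deiters' cells. Of these 8, 1 was at 0 in pillar cells, versus 2 in Deiters' cells. Eosinophil markers summed to at most 0.565 RPKM in pillar cells and to 89.7 to 92.3 in Deiters' cells. Of these 7, 5 were listed at 0 in pillar cells, versus 1 in Deiters' cells. Red cell markers, the most abundant of these, summed to 4802 to 4880 RPKM in pillar cells against 2973 to 3457 in Deiters' cells, with none of 6 at 0 and 1 called, in pillar cells. Of 7 pillar cell markers tested, 4 were called higher in pillar cells, versus 2 in Deiters' cells, and of 7 Deiters' cell markers 5 were called higher in Deiters' cells, versus 2 in pillar cells. Some of these markers were picked by the study on the same libraries. The part of other cells in the differences below was not tested, and fewer cells of a type and less RNA per cell cannot be told apart.

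Most of the enzymes were expressed in both cell types at similar levels. A member entered the comparison if its mean exceeded 0.1 RPKM in either cell type, which left 79 of the 92. Of the 13 others, 11 were listed at 0 in every library: the pseudogenes Dnmt3a-ps1, Dnmt3l-ps1, Kat2b-ps, Kat6b-ps1, Kat6b-ps2, Smarce1-ps1 and Kdm4dl, the antisense genes Dnmt3aos and Kdm6bos, Dnmt3l, which encodes a cofactor of DNA methyltransferases in germ cells, and Dnmt3c-ps, which the annotation gives as protein-coding despite its symbol. Kdm4d and Kdm5d had reads but stayed under the limit. Over the 6 libraries, 18 members averaged above 10 RPKM, 47 lay between 1 and 10 RPKM and 14 of those tested under 1 RPKM. The median member level was 4.26 RPKM, against 2.97 RPKM over all 17188 genes tested. Sirt2, a cytosolic deacetylase of tubulin and histones, was far above the rest with a mean of 154 RPKM, followed by Hdac3 with 46.6 and Hdac1 with 28.6. The coefficient of variation between libraries had a median of 4.6% in pillar cells, versus 4.5% in Deiters' cells over the 65 members above 1 RPKM.

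Differences between the cell types were tested for all 17188 genes with limma on log2(RPKM + 0.1), a scale that understates the change of low genes, and log2 values are given as pillar minus Deiters' cells. Genes past both an adjusted p of 0.01 and a 2-fold difference were called. Of the 79 members, 7 (8.9%) were called higher in pillar cells, where 14.7% of all tested genes were. In Deiters' cells 3 (3.8%) were called higher, where 14.0% of all were. Smarca5-ps among the 7 and Dnmt3b among the 3 passed the 0.1 RPKM limit through that cell type alone. By the adjusted p alone, 27 members (34.2%) were higher in pillar cells, versus 18 (22.8%) in Deiters' cells, against 30.1% and 31.9% of all tested genes, and 34 members were past it in neither direction. With each library shifted to the same median, the counts by adjusted p were 20 and 21. The fold was under 1.5 in 56 members (70.9%) and in 48.6% of all tested genes. All pillar cell libraries lay above all Deiters' cell libraries for 41 members (51.9%), against 37.6% of all tested genes, and the reverse held for 21 members (26.6%), against 38.9%. With a pseudocount of 1 RPKM in place of 0.1, which pulls low genes together, Kmt2e, Sirt4, Kdm8 and Sirt7 were the members still called. The members' median difference was 0.16 on the log2 scale, against 0.00 over all genes.

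**Figure D1:**
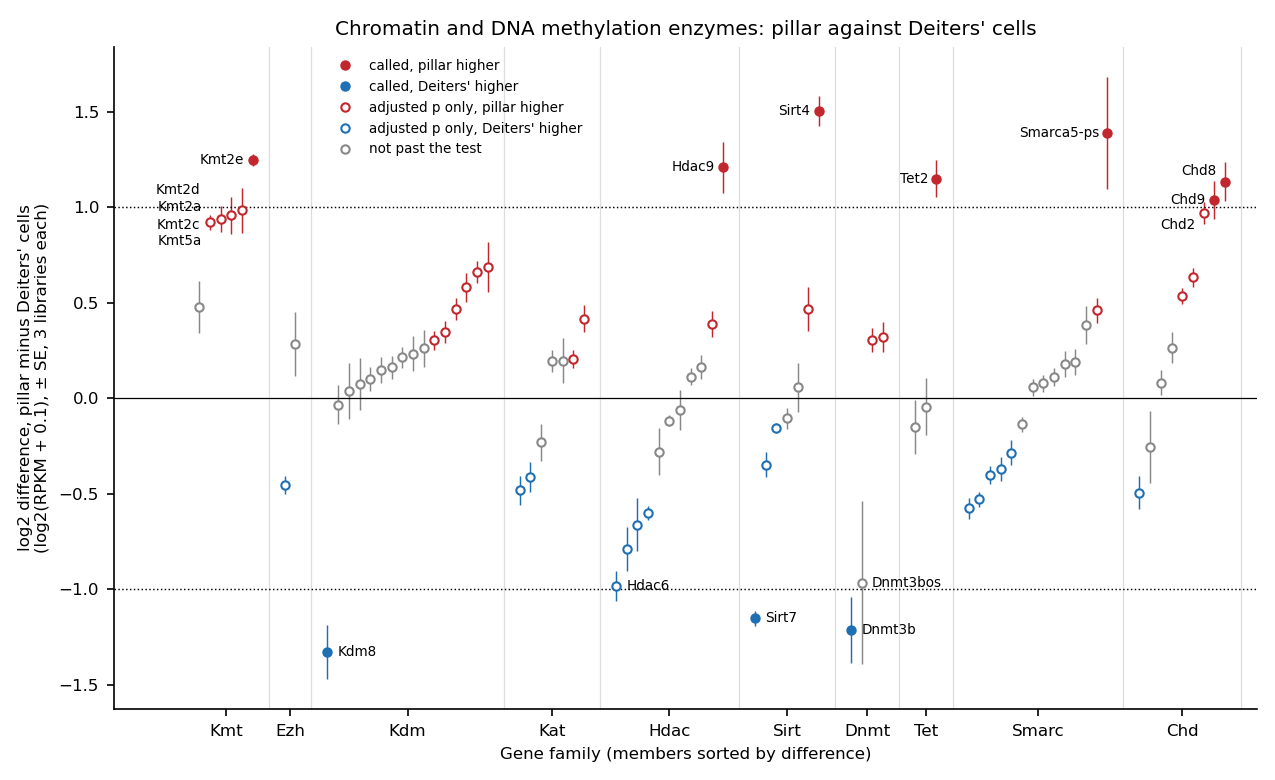
Each point is 1 of the 79 tested members, grouped by gene family on the x axis, with its log2 difference between pillar and Deiters' cells on the y axis (positive is higher in pillar cells, bars are SE from limma, 3 libraries per cell type). Dotted lines mark the 2-fold limit. The filled points are the called members, 7 higher in pillar cells and 3 higher in Deiters' cells, and 5 of the 6 Kmt members sit near or above the upper limit.

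Among the histone methyltransferases, every Kmt gene tested had a higher mean in pillar cells. Kmt2e, a PHD and SET domain protein that reads rather than writes methylation of histone H3, had 28.6, 28.1 and 28.3 RPKM in the pillar cell libraries and 11.8, 12.04 and 11.7 in the Deiters' cell libraries. The groups did not overlap, and the spread within each was a small part of the gap. Kmt2e (chromosome 5, 23434441 to 23504235) was 2.39-fold higher in pillar cells (log2 difference 1.25, SE 0.03, limma adjusted p = 3.5e-07). Kmt5a, which places the first methyl group on lysine 20 of histone H4, had 21.8, 20.3 and 20.9 RPKM in pillar cells against 11.1, 11.2 and 10.8 in Deiters' cells. It was 1.90-fold higher in pillar cells (log2 difference 0.92, SE 0.04, limma adjusted p = 3.2e-06) and so was past the adjusted p but short of the 2-fold limit.

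The other Kmt2 genes encode the large writers of methylation at lysine 4 of histone H3 and were expressed at lower levels. Kmt2c, which acts on enhancers, had 3.28, 3.36 and 3.29 RPKM in pillar cells against 1.66, 1.75 and 1.62 in Deiters' cells. Kmt2a, known from leukaemia as MLL, had 1.74, 1.78 and 1.88 RPKM in pillar cells against 0.796, 0.918 and 0.927 in Deiters' cells. Kmt2d, the partner of Kmt2c at enhancers, had 1.03, 1.07 and 0.939 RPKM in pillar cells against 0.427, 0.514 and 0.448 in Deiters' cells. The 3 genes had no overlap between the cell types and log2 differences of 0.94 (Kmt2c), 0.96 (Kmt2a) and 0.98 (Kmt2d), with limma adjusted p of 2.9e-05, 1.6e-04 and 3.5e-04, all just under the 2-fold limit on the log2(RPKM + 0.1) scale, while by the means the folds were 1.97, 2.05 and 2.19. With the lanes of 1 set alone all 3 reached the limit (1.00 each). With a pseudocount of 0.01 RPKM Kmt2a (1.03) and Kmt2d (1.12) did. Kmt2a also reached it with the first lane of each library alone (1.07), and Kmt2d without pillar cell library 3 (1.03) or Deiters' cell library 2 (1.05). They were given with their tests after their values were seen. Kmt2b, at 0.723 ± 0.0458 and 0.493 ± 0.0699 RPKM (SD, n = 3 libraries), was the Kmt member that did not pass the adjusted p. Summed over the family, Kmt levels were 56.2 ± 0.98 RPKM in pillar cells against 26.4 ± 0.45 in Deiters' cells (SD, n = 3), with Kmt2e making up 50.4% and 44.9% of the sum.

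Ezh1 and Ezh2 are alternative catalytic subunits of Polycomb repressive complex 2. Ezh1, typical of cells that have left the cell cycle, had 10.7, 10.5 and 10.4 RPKM in pillar cells against 14.8, 13.6 and 15.05 in Deiters' cells. All Deiters' cell libraries were above all pillar cell libraries, and the difference was 1.37-fold (log2 difference -0.45, SE 0.05, limma adjusted p = 1.9e-04). Ezh2, the form of dividing cells, had 1.48, 1.92 and 1.55 RPKM in pillar cells against 1.19, 1.68 and 1.18 in Deiters' cells, and the groups overlapped. Ezh1 was the main form in both cell types, at 86.5% ± 1.7 of the summed level in pillar cells, versus 91.4% ± 2.1 in Deiters' cells (SD, n = 3). The summed level of 12 markers of cycling cells was 45.7 to 47.2 RPKM in pillar cells against 37.3 to 39.0 in Deiters' cells, but its members did not go one way: none was called in pillar cells by limma and 3 passed the adjusted p there (Ccnb2, Pcna and Tyms), while Aurkb, listed at 0 in all pillar cell libraries, and Mcm2 were called in Deiters' cells.

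**Figure D2:**
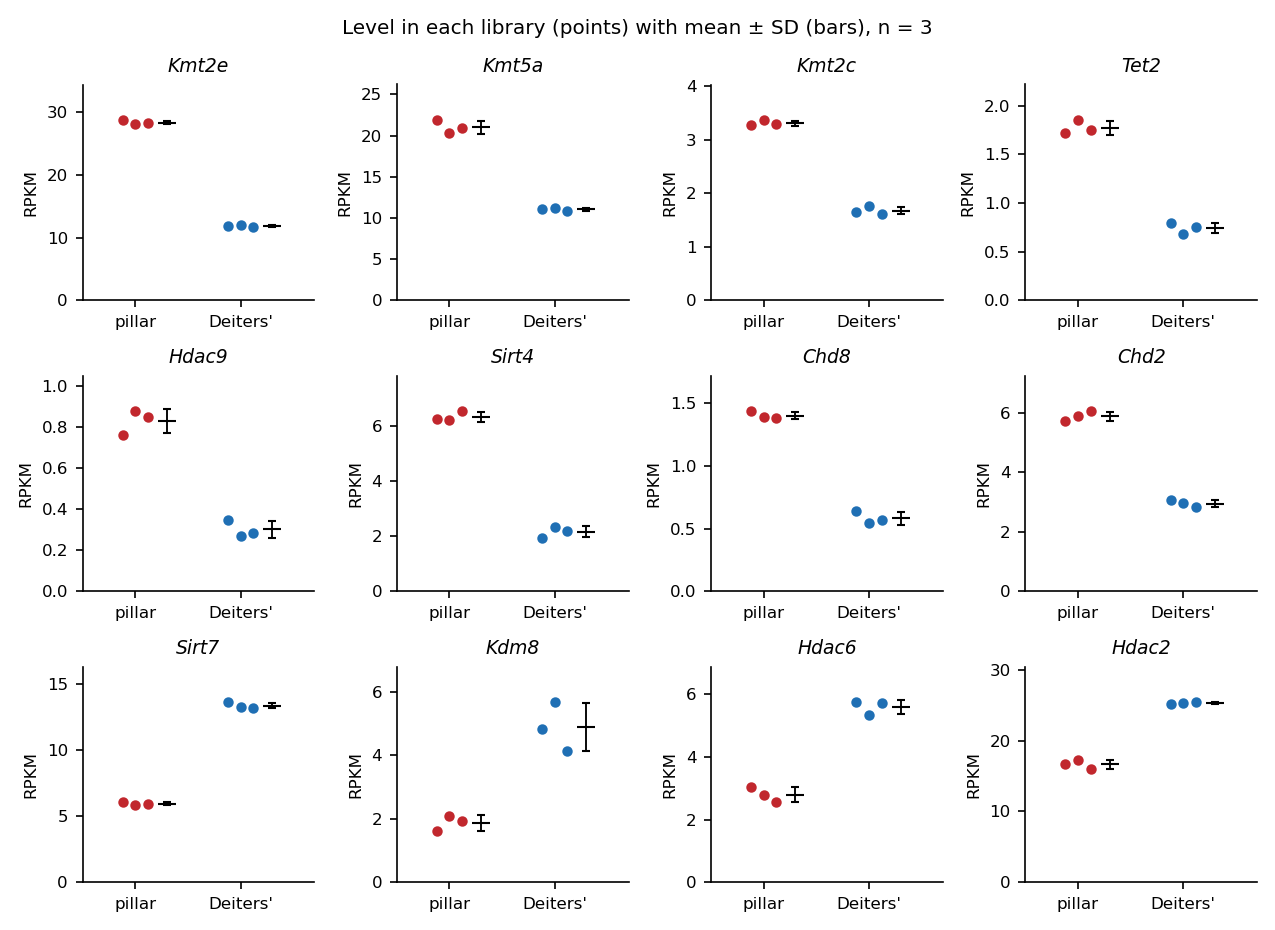
RPKM in each of the 3 pillar cell libraries (red) and 3 Deiters' cell libraries (blue) for 12 members, each panel with its own y axis from 0 and black bars for the mean ± SD. The pillar cell points lie above all Deiters' cell points in the first 8 panels and below them in Sirt7, Kdm8, Hdac6 and Hdac2.

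Demethylases differed by less. None of the 16 Kdm genes tested was called higher in pillar cells, where 14.7% of all tested genes were. By the adjusted p alone 6 were higher there (30.1% of all), and Kdm8 was the 1 higher in Deiters' cells (31.9% of all). Kdm8 encodes a Jumonji protein first described as a demethylase of lysine 36 of histone H3 and since also as a hydroxylase and protease. Kdm8 had 1.62, 2.10 and 1.92 RPKM in pillar cells against 4.83, 5.67 and 4.15 in Deiters' cells. Its lowest Deiters' cell library was well above its highest pillar cell library, although the Deiters' cell libraries differed among themselves more than for most members. Kdm8 (chromosome 7, 125444676 to 125462269) was 2.60-fold higher in Deiters' cells (log2 difference -1.33, SE 0.14, limma adjusted p = 1.9e-04).

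Kdm4b, a demethylase of lysines 9 and 36 of histone H3, was the strongest Kdm difference toward pillar cells among genes above 5 RPKM. It had 13.5, 14.5 and 13.2 RPKM in pillar cells against 9.16, 8.58 and 8.19 in Deiters' cells, without overlap. The fold was 1.59 (log2 difference 0.66, SE 0.06, limma adjusted p = 7.7e-05). Kdm1a (LSD1), which removes methyl groups from lysine 4 within the CoREST complex, was the most abundant Kdm gene with 16.8, 16.2 and 16.1 RPKM in pillar cells against 13.2, 12.5 and 14.0 in Deiters' cells. That difference was 1.24-fold (log2 difference 0.30, SE 0.05, limma adjusted p = 1.4e-03). Kdm6a and Kdm6b, demethylases of lysine 27 that oppose Ezh1 and Ezh2, did not pass the test. Kdm6a had 3.72 ± 0.27 and 3.34 ± 0.0514 RPKM and Kdm6b 0.612 ± 0.0389 and 0.579 ± 0.0891 RPKM in pillar and Deiters' cells (SD, n = 3). Of the 8 genes grouped as acting on lysines 9 or 36, 4 were higher in pillar cells by the adjusted p (Kdm3a, Kdm3b, Kdm4b and Kdm7a), where 30.1% of all tested genes were. None was higher by it in Deiters' cells, where 31.9% of all were.

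Kdm5d and Kdm5c are the copies on the Y and X chromosomes of a lysine 4 demethylase. Kdm5d had 0.073, 0.0812 and 0.0527 RPKM in pillar cells against 0, 0.00807 and 0.00832 in Deiters' cells, so it stayed under 0.1 RPKM and out of the test. Kdm5c had 2.58, 2.28 and 2.24 RPKM in pillar cells against 2.17, 1.85 and 1.87 in Deiters' cells and did not pass the adjusted p. Other Y-linked genes were also higher in pillar cells, Ddx3y at 1.57 against 0.519 RPKM (called, limma adjusted p = 1.3e-04) and Eif2s3y at 1.25 against 0.602 RPKM (limma adjusted p = 3.1e-03). The X-linked Xist was higher as well, at 1.96 against 0.939 RPKM (limma adjusted p = 3.9e-04). The sexes of the pooled mice are not stated, and their part in the Kdm5d values was not tested.

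None of the 7 histone acetyltransferases of the Kat family was called, and 2 were past the adjusted p in each direction. These were Kat5 and Kat6a in pillar cells (30.1% of all tested genes) and Kat2a and Kat2b in Deiters' cells (31.9% of all). Kat5 (TIP60), the most abundant, had 22.6, 24.3 and 24.8 RPKM in pillar cells against 21.0, 21.0 and 20.01 in Deiters' cells. The groups did not overlap, but the difference was only 1.15-fold (log2 difference 0.21, SE 0.05, limma adjusted p = 5.7e-03). Kat2a and Kat2b (GCN5 and PCAF), interchangeable subunits of the SAGA and ATAC complexes, kept a like ratio in both cell types, with Kat2b at 1.42 to 1.52 times Kat2a in the pillar cell libraries and 1.39 to 1.69 times in the Deiters' cell libraries. Kat7, which acetylates histones at replication origins and promoters, had 17.4 ± 1.27 and 15.2 ± 0.337 RPKM (SD, n = 3).

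Class I deacetylases remove acetyl groups from histones within the NuRD, Sin3, CoREST and NCoR complexes. Hdac2 had 16.7, 17.2 and 15.999 RPKM in pillar cells against 25.1, 25.3 and 25.4 in Deiters' cells. The groups were far apart compared with their spread, and the difference was 1.52-fold (log2 difference -0.60, SE 0.04, limma adjusted p = 1.3e-05). Hdac1, its close paralog, had 29.6, 30.8 and 28.8 RPKM in pillar cells against 28.5, 27.8 and 26.1 in Deiters' cells and did not pass the test (log2 difference 0.11, SE 0.04, limma adjusted p = 0.056). Hdac1 shifted with the set of lanes, between 26.4 and 26.6 RPKM in the 2 pillar cell lanes of 1 set and 29.7 to 32.5 in the 4 of the other, and between 25.5 and 26.8 against 29.8 and 31.2 in Deiters' cells. Hdac1 made up 64.1% ± 0.2 of the summed Hdac1 and Hdac2 level in pillar cells, versus 52.1% ± 1.2 in Deiters' cells (SD, n = 3). Hdac3, the catalytic subunit of NCoR complexes and the most abundant deacetylase of its family, had 44.6, 46.0 and 43.5 RPKM against 48.6, 47.5 and 49.1, which did not reach the threshold (log2 difference -0.12, SE 0.03, limma adjusted p = 0.013).

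Among the class II deacetylases, Hdac9 and Hdac6 differed in opposite directions. Hdac9, a class IIa repressor of the transcription factor MEF2, had 0.763, 0.878 and 0.850 RPKM in pillar cells against 0.351, 0.272 and 0.285 in Deiters' cells. It was 2.74-fold higher in pillar cells without overlap (log2 difference 1.21, SE 0.13, limma adjusted p = 2.3e-04). Hdac6, a cytoplasmic deacetylase of tubulin, had 3.04, 2.78 and 2.55 RPKM in pillar cells against 5.73, 5.34 and 5.72 in Deiters' cells. The groups did not overlap, and the fold of 2.005 by the means was a log2 difference of -0.98 (SE 0.08, limma adjusted p = 4.8e-05), at the edge of the limit. Hdac6 was called when libraries were shifted to the same median (-1.10), without pillar cell library 1 (-1.04) and without Deiters' cell library 2 (-1.01). Tubulin acetylation is a matter of interest in pillar cells, whose shafts are filled with microtubules, and the study describes microtubular features as shared with Deiters' cells. Sirt2, the other tubulin deacetylase among the members, had 148, 144 and 144 RPKM in pillar cells against 166, 160 and 161 in Deiters' cells. The Sirt2 difference did not overlap but was small, at 1.11-fold (log2 difference -0.16, SE 0.03, limma adjusted p = 1.4e-03). Hdac8 and Hdac11 were also higher in Deiters' cells by the adjusted p, and Hdac5 in pillar cells.

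Sirtuins are deacetylases that consume NAD. Of the 7 tested, 1 was called in pillar cells, where 14.7% of all tested genes were, and 1 in Deiters' cells, where 14.0% were. Sirt4, a mitochondrial sirtuin that restrains glutamate dehydrogenase, had 6.26, 6.22 and 6.55 RPKM in pillar cells against 1.95, 2.36 and 2.21 in Deiters' cells. Sirt4 (chromosome 5, 115478010 to 115484725) was 2.91-fold higher in pillar cells, the highest log2 difference of the tested members (1.505, SE 0.08, limma adjusted p = 8.3e-06). Sirt7, a nucleolar sirtuin that acts on lysine 18 of histone H3 and on ribosomal RNA synthesis, had 6.09, 5.87 and 5.91 RPKM in pillar cells against 13.6, 13.3 and 13.2 in Deiters' cells. Sirt7 (chromosome 11, 120618372 to 120625240) was 2.24-fold higher in Deiters' cells (log2 difference -1.15, SE 0.04, limma adjusted p = 1.1e-06). Within a library, Sirt4 was 1.03, 1.06 and 1.11 times Sirt7 in pillar cells and 0.144, 0.178 and 0.168 times Sirt7 in Deiters' cells. The other mitochondrial sirtuins did not follow Sirt4: Sirt3 was higher in Deiters' cells by the adjusted p, at 16.1 ± 0.82 against 20.5 ± 1.57 RPKM, and Sirt5 had 6.74 ± 0.324 and 7.25 ± 0.237 RPKM with overlapping libraries (SD, n = 3). The calls of Sirt4, Sirt7, Kdm8 and Kmt2e stood under all 17 alternatives tried.

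DNA methylation is copied at replication by Dnmt1, set anew by Dnmt3a and Dnmt3b, and removed stepwise after oxidation by the TET enzymes. Dnmt1, the most abundant of them, had 5.09, 4.90 and 5.37 RPKM in pillar cells against 4.09, 4.36 and 3.91 in Deiters' cells (1.24-fold, log2 difference 0.31, SE 0.06, limma adjusted p = 4.5e-03). Dnmt3a had 1.89 ± 0.05 and 1.497 ± 0.0675 RPKM (SD, n = 3), so that Dnmt1 was 2.63 to 2.75 times Dnmt3a in pillar cells, versus 2.60 to 3.02 times in Deiters' cells. Dnmt3b was listed at 0 in all pillar cell libraries and had 0.109, 0.122 and 0.168 RPKM in Deiters' cells, which is 12, 12 and 16 reads. It passed the 0.1 RPKM limit through the Deiters' cell libraries alone and was called higher there (limma adjusted p = 7.6e-04). At so few reads no fold is given, and it was not called with the lanes of 1 set alone. Its antisense gene Dnmt3bos was likewise at 0 in pillar cells and had 2, 0 and 3 reads in Deiters' cells. Whether counting used strand is not stated, so reads of the pair cannot be told apart.

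Of the 3 TET genes only Tet2 was called, in pillar cells, where 14.7% of all tested genes were. Tet2 had 1.72, 1.85 and 1.75 RPKM in pillar cells against 0.792, 0.683 and 0.756 in Deiters' cells, and the groups did not overlap. Tet2 (chromosome 3, 133463679 to 133545139) was 2.38-fold higher in pillar cells (log2 difference 1.15, SE 0.10, limma adjusted p = 6.4e-05). Tet1 had 0.374, 0.285 and 0.301 RPKM in pillar cells against 0.341, 0.377 and 0.376 in Deiters' cells, and Tet3 had 0.458, 0.502 and 0.392 against 0.402, 0.528 and 0.474, both with overlap. Tet2 made up 69.7% of the summed TET level in pillar cells, versus 47.2% in Deiters' cells.

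Of the 9 CHD remodelers, 2 were called in pillar cells, where 14.7% of all tested genes were, 5 were past the adjusted p there (30.1% of all) and 1 was past it in Deiters' cells (31.9% of all). Chd8, which represses beta-catenin targets and is a frequently mutated gene in autism, had 1.43, 1.39 and 1.38 RPKM in pillar cells against 0.641, 0.543 and 0.565 in Deiters' cells. Chd8 (chromosome 14, 52198151 to 52257780) was 2.40-fold higher in pillar cells without overlap (log2 difference 1.14, SE 0.10, limma adjusted p = 9.3e-05). Chd9 had 2.47, 2.46 and 2.29 RPKM against 1.24, 1.01 and 1.11 (2.15-fold, log2 difference 1.04, SE 0.10, limma adjusted p = 1.1e-04). The Chd9 call ended without Deiters' cell library 2 (0.97), with libraries shifted to the same median (0.92), with the first lane of each library alone (0.98) and with a pseudocount of 1 RPKM (0.68). Chd2 had 5.73, 5.87 and 6.04 RPKM in pillar cells against 3.06, 2.97 and 2.82 in Deiters' cells, 1.99-fold higher (log2 difference 0.97, SE 0.06, limma adjusted p = 1.2e-05). Chd7, whose loss causes CHARGE syndrome with inner ear malformation, had 5.82, 5.67 and 5.73 RPKM in pillar cells against 3.62, 3.58 and 3.79 in Deiters' cells. It was 1.57-fold higher in pillar cells (log2 difference 0.63, SE 0.05, limma adjusted p = 4.4e-05).

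Chd4 and Chd3 are alternative ATPases of the NuRD complex, in which Hdac1 and Hdac2 are the deacetylases. Chd4 had 7.92, 7.88 and 7.85 RPKM in pillar cells against 5.48, 5.49 and 5.22 in Deiters' cells (1.46-fold, log2 difference 0.54, SE 0.04, limma adjusted p = 4.9e-05). Chd3 went the other way, with 1.01, 1.12 and 1.11 RPKM in pillar cells against 1.55, 1.57 and 1.56 in Deiters' cells. Within a library, Chd4 was thus 7.06 to 7.85 times Chd3 in pillar cells, versus 3.36 to 3.52 times in Deiters' cells, with no overlap.

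None of the protein-coding Smarc genes was called in either direction. The BAF ATPases Smarca4 (BRG1) and Smarca2 (BRM) had 15.99 ± 0.367 and 10.3 ± 0.45 RPKM in pillar cells against 17.6 ± 0.722 and 9.50 ± 0.266 in Deiters' cells (SD, n = 3), and neither passed the test. The ISWI ATPases Smarca1 and Smarca5 were both higher in Deiters' cells by the adjusted p, with Smarca1 at 11.6 ± 0.605 against 15.3 ± 0.301 RPKM and Smarca5 at 11.7 ± 0.34 against 15.2 ± 1.18. Their ratio stayed near 1, Smarca5 being 0.959 to 1.05 times Smarca1 in pillar cells, versus 0.942 to 1.07 times in Deiters' cells. Smarcd2, a BAF subunit that links the complex to transcription factors, had the highest Smarc mean over the 6 libraries, though not in pillar cells alone, with 14.8, 16.5 and 15.9 RPKM in pillar cells against 24.8, 22.5 and 23.3 in Deiters' cells. It was 1.49-fold higher in Deiters' cells without overlap (log2 difference -0.58, SE 0.05, limma adjusted p = 1.1e-04). Smarcb1 and Smarce1, present in a single form, had 13.1 ± 0.226 and 7.05 ± 0.122 RPKM in pillar cells against 12.4 ± 0.555 and 6.77 ± 0.231 in Deiters' cells.

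Subunits of BAF that replace each other had different shares in the 2 cell types. Smarcc2 (BAF170) had 13.8, 13.0 and 13.6 RPKM in pillar cells against 19.6, 18.9 and 20.01 in Deiters' cells, while Smarcc1 (BAF155) had 5.43, 5.89 and 6.17 against 4.16, 4.09 and 4.37. Smarcc2 made up 69.8% ± 1.8 of their sum in pillar cells, versus 82.2% ± 0.2 in Deiters' cells (SD, n = 3). Smarcd3 (BAF60c), the form known from heart and muscle, made up 19.0% ± 2.8 of the 3 Smarcd genes in pillar cells, versus 10.98% ± 0.57 in Deiters' cells, and Smarcd2 64.3% ± 2.3 and 73.4% ± 0.75. Of 16 tested partners of BAF that are not Smarc genes, 3 (18.8%) were called in pillar cells, where 14.7% of all tested genes were. None was called in Deiters' cells, where 14.0% of all were. By the adjusted p, 9 were higher in pillar cells (30.1% of all) and 3 in Deiters' cells (31.9% of all), with a median log2 difference of 0.45. Actl6b and Dpf3 differed by more than any Smarc gene. Actl6b (BAF53b), the form of post-mitotic neurons, had 2.14, 2.34 and 2.63 RPKM in pillar cells against 0.309, 0.161 and 0.386 in Deiters' cells (log2 difference 2.72, SE 0.24). Dpf3 (BAF45c), a reader of acetylated histones, had 6.19, 6.72 and 6.28 RPKM in pillar cells against 0.989, 1.06 and 1.12 in Deiters' cells (log2 difference 2.49, SE 0.07). Both were called by limma and neither overlapped. Actl6b made up 11.7% ± 1.1 of Actl6a and Actl6b together in pillar cells, against 1.8% ± 0.81 in Deiters' cells, and Dpf3 31.1% ± 2.5 of the Dpf genes, against 4.3% ± 0.25, with Dpf1 listed at 0 throughout. The hair cell markers given above were also higher in pillar cells, and their part in the Actl6b and Dpf3 values was not tested.

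**Figure D3:**
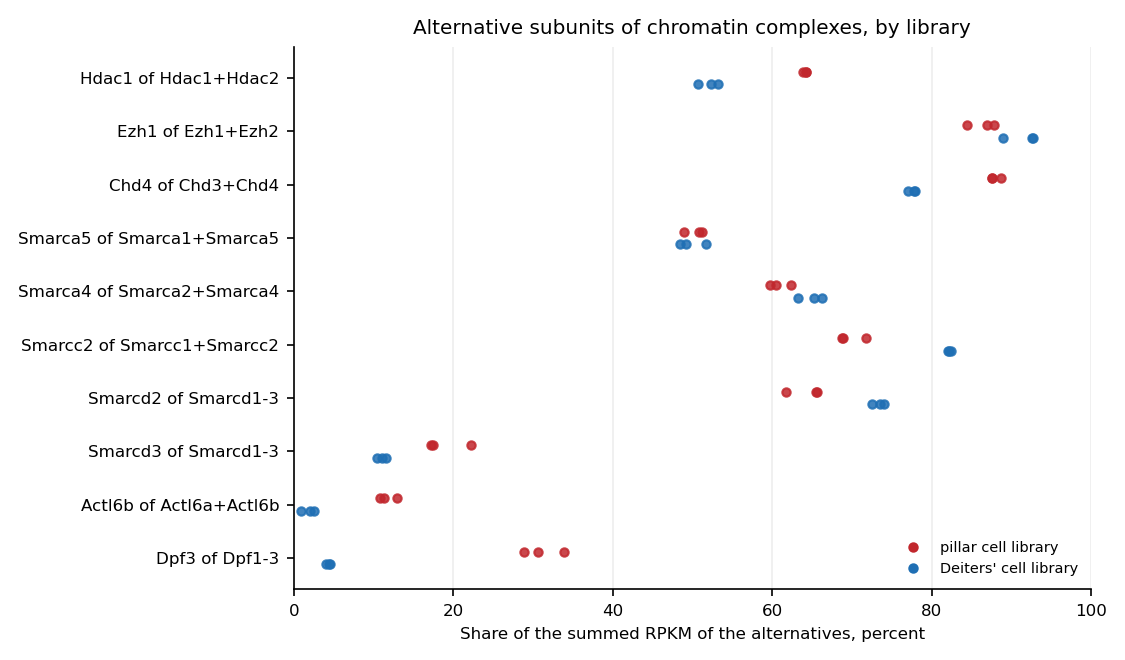
Share of one subunit in the summed RPKM of the genes that can take the same place in a complex (x axis, percent), with 1 point per library for pillar cells (red) and Deiters' cells (blue). Of the 10 shares plotted, that of Smarca5 overlaps between the cell types and the others do not, with Dpf3 at 31.1% and 4.3%, and the shares of Kat2a and Smarcd1, which also overlap, are not plotted. The shares of Smarcd2 and Smarcd3 come from the same sum. Lack of overlap was common: in level, all pillar cell libraries lay above for 37.6% of all tested genes and all Deiters' cell libraries for 38.9%.

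The pseudogene Smarca5-ps, a processed pseudogene of Smarca5, was among the 7 calls in pillar cells but rested on few reads. It passed the 0.1 RPKM limit through the pillar cell libraries alone. It had 16, 6 and 18 reads in pillar cells, versus 2, 1 and 0 in Deiters' cells, or 0.246, 0.0976 and 0.293 RPKM against 0.0286, 0.0161 and 0. The log2 difference was 1.39 (SE 0.29, limma adjusted p = 4.8e-03), and the call ended with 5 of the 6 libraries left out in turn, at adjusted p of 0.012 to 0.021. Reads may be shared with Smarca5 itself, which was higher in Deiters' cells. Chd5, a CHD gene of neurons, was near the limit of detection with 39 reads in all pillar cell libraries and 59 in all Deiters' cell libraries, and Kdm4d had 11 and 17.

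Promoter sequences were available from RefSeq for 65 of the 92 members. In the 250 bases before the start site, the members' 93 promoter entries had a median of 17 CpG dinucleotides and 61.6% G and C, against 14 and 59.2% over the 14837 entries of all tested genes. Of 3 motifs searched on both strands, GGGCGG, the core of the Sp1 box, was in 63.4% of member entries and 54.3% of entries of tested genes, CCAAT in 35.5% and 34.6%, and TATAAA in 4.3% and 6.8%. The 3 promoters below show how far called members differ in this respect. They are those of Tet2 and Chd8, higher in pillar cells, and Kdm8, higher in Deiters' cells, each as 120 bases of GRCm38.p6 outside annotated exons (5′ to 3′ on the gene's strand), with matches to GGGCGG or CCAAT on either strand in capitals.
Tet2: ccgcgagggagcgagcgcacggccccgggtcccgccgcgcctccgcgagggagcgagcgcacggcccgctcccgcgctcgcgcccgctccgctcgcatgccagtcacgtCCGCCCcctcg
Chd8: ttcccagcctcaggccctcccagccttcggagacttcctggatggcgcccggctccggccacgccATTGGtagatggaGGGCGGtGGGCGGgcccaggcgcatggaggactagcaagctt
Kdm8: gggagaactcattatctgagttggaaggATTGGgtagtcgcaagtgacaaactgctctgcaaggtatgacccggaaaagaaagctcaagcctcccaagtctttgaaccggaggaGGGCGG
The Tet2 stretch (chr3:133544391-133544510, minus strand) ends at the RefSeq start site, lies in an intron of a longer annotated Tet2 transcript and holds 25 CpG dinucleotides. The Chd8 stretch (chr14:52257781-52257900, minus strand) holds 8, and the Kdm8 stretch (chr7:125444500-125444619, plus strand) holds 4. All 3 contain GGGCGG, whichever cell type had the higher level, and Chd8 and Kdm8 also contain CCAAT. A match describes the letters only and is not a site of binding.

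Members with long exons passed the test toward pillar cells more than toward Deiters' cells. Over the 77 protein-coding members tested, the log2 difference was correlated with the length of the merged exons (Spearman's rho 0.51, Pearson's r 0.49 on log2 length), against 0.08 and 0.04 over the 14316 other protein-coding genes tested. These are correlations across genes, which share libraries and are not independent replicates. Of the 24 members with at least 10 kb of exon, 22 had a higher mean in pillar cells on the log scale, 13 passed the adjusted p there and none in Deiters' cells. Of the 53 shorter members, 13 passed in pillar cells, versus 18 in Deiters' cells. Among other protein-coding genes of at least 10 kb, 43.0% passed in pillar cells, versus 23.0% in Deiters' cells, and of the shorter ones 30.7% and 35.2%. The long members include Kmt2a, Kmt2c, Kmt2d and Kmt2e, Chd2, Chd7, Chd8 and Chd9, Tet2 and Hdac9, while Tet1 and Tet3, of 15.5 and 16.7 kb, did not pass the test. Sirt4, of 2.40 kb, and Kmt5a, of 5.31 kb, were higher in pillar cells without being long.

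**Figure D4:**
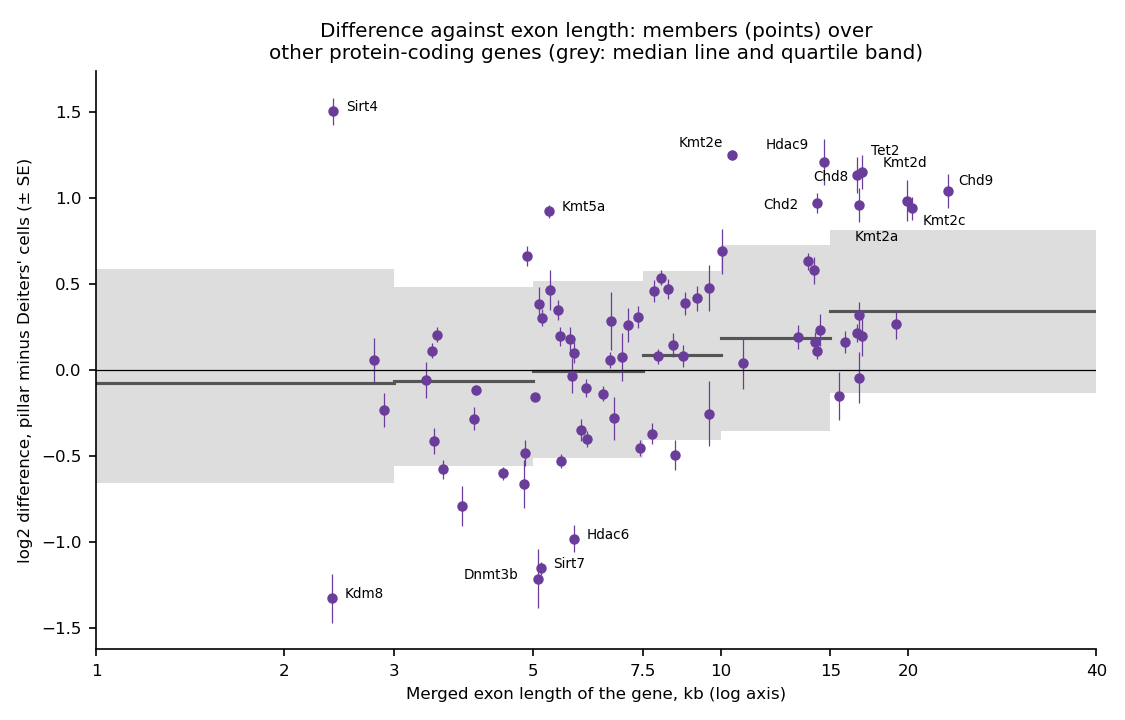
Log2 difference between pillar and Deiters' cells (y axis, positive is higher in pillar cells, bars are SE from limma) against merged exon length in kb (x axis, log scale) for the 77 protein-coding members tested, over the median (line) and quartiles (band) of other protein-coding genes in 6 length bins. Of the members of at least 10 kb, 22 of 24 lie above 0, and their median of 0.45 compares with 0.23 for other genes of that length.

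Other genes that work with these enzymes were taken from lists of partners, 185 of which were tested. Of these, 14 (7.6%) were called higher in pillar cells, versus 5 (2.7%) in Deiters' cells, below the 14.7% and 14.0% of all genes, and 65 and 41 passed the adjusted p, which is 35.1% and 22.2% of those tested against the 30.1% and 31.9% given above for all genes. Of 25 Polycomb genes, 3 were called in pillar cells, versus 1 in Deiters' cells. Bmi1, a subunit of Polycomb repressive complex 1 needed for self-renewal, had 19.5, 19.4 and 19.3 RPKM in pillar cells against 8.84, 8.46 and 7.67 in Deiters' cells (log2 difference 1.22, SE 0.06). Pcgf2, its paralog, was also higher in pillar cells, at 1.32 ± 0.227 against 0.269 ± 0.0527 RPKM. Ring1, a ubiquitin ligase of the same complex, was higher in Deiters' cells, at 8.48 ± 0.491 against 3.40 ± 0.281 RPKM (SD, n = 3). Suv39h1, which places the methyl mark of heterochromatin, was the 1 gene called among 29 other histone methyltransferases (3.4%, against 14.0% of all genes in that direction). It had 0.417 ± 0.0849 RPKM in pillar cells against 1.51 ± 0.0822 in Deiters' cells.

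Remodeler and bromodomain partners were called in pillar cells at about the share of all genes, and passed the adjusted p there more often in number than in Deiters' cells. Of 20 partners of ISWI, INO80 and related complexes, 13 (65%) passed the adjusted p in pillar cells, where 30.1% of all tested genes did. In Deiters' cells 2 (10%) passed it, where 31.9% of all did. The 3 called, in pillar cells (3 of 20, where 14.7% of all tested genes were), were Cecr2, Bptf and Srcap. The summed level of the 20 was 160.6 to 167.3 RPKM in pillar cells against 166.4 to 173.0 in Deiters' cells, so the sum did not follow the counts. Bptf, the large subunit of the NURF complex, had 3.56, 3.04 and 3.07 RPKM in pillar cells against 1.16, 1.12 and 1.18 in Deiters' cells (log2 difference 1.41, SE 0.09). Of 12 bromodomain readers, 2 (16.7%) were called in pillar cells. By the adjusted p, 7 (58.3%) were higher there, where 30.1% of all tested genes were, and none in Deiters' cells, where 31.9% were. Brwd3, past the 0.1 RPKM limit through pillar cells alone, had 0.674 ± 0.0186 against 0.0904 ± 0.0244 RPKM in Deiters' cells. Atad2 had 1.60 ± 0.128 in pillar cells against 0.427 ± 0.0495. Among readers and removers of DNA methylation, Uhrf1, which guides Dnmt1 to newly copied DNA, was 1.34 ± 0.0845 RPKM in pillar cells against 0.448 ± 0.0493 in Deiters' cells and was called, whereas Gadd45a, at 4.48 ± 0.878 and 10.2 ± 0.255 RPKM, and Apex1 were called in Deiters' cells. Arginine methyltransferases and NuRD partners had no called gene by limma among 9 and 8 tested, where 14.7% and 14.0% of all tested genes were called. By the adjusted p, 1 and 2 were higher in pillar cells (30.1% of all), versus 3 and 2 in Deiters' cells (31.9% of all). Among deacetylase corepressors, Rcor2, a CoREST subunit, was the 1 of 18 called (5.6%, against 14.0% of all tested genes in that direction). It was listed at 0 in every pillar cell library and had 0.118, 0.248 and 0.222 RPKM in Deiters' cells. Rcor2 thus passed the 0.1 RPKM limit through Deiters' cells alone and lay near it.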

How the data were processed

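RNA was sequenced from 3 libraries of pillar cells and 3 of Deiters' cells, in 2 lanes each. Reads were aligned by the authors in CLC Genomics Workbench, with mm10 (GRCm38) as the genome, and RPKM were deposited for each lane. The annotation release is not given in the sources used here. Lanes were averaged, and a library counted as 1 replicate. RPKM steps gave whole reads to within 0.01 in 71.9% of the 20010 features where they could be worked out. Reads worked out in this way served for depth and for the reads given for single genes at low levels, and not for the test. Differences were tested with limma 3.58.1 in R 4.3.3 (lmFit, eBayes with trend, two-sided, Benjamini-Hochberg over 17188 genes), after a check on simulated data. No exact test was used, since 3 libraries per cell type allow a two-sided p no lower than 0.1. Coordinates, gene types and exon lengths come from GENCODE M21. A fold and its test are given for every member called, every member past the adjusted p with a mean above 5 RPKM and at least 1.5-fold, and the most abundant member of each family, and partners are named up to 3 per list among those called. The members, lists and alternatives were chosen with earlier results of these data known. Alternatives to the pseudocount, filter, lanes, scaling, variance model and replicates stand in the closing section.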

Additional observations from a re-analysis of the deposited data

How the results depend on the processing

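All alternatives were run, with no value for Hdac9, Dnmt3b and Smarca5-ps under a filter at 1 RPKM. The direction changed in 1 case: the difference of Hdac1, which was not called, went to -0.004 with libraries shifted to the same median. That shift lowered the median of all genes by 0.12 on the log2 scale. A pseudocount of 1 RPKM in place of 0.1 left 2 members called in pillar cells (Kmt2e and Sirt4; Tet2, Chd8, Chd9 and Hdac9 fell under 2-fold), 1001 and 778 of all genes called (pillar cells first), and 3 and 2 partner genes. A filter at 1 RPKM left 1572 and 1224 of all genes. Leaving out 1 library at a time gave 6 to 7 members called in pillar cells and 3 to 5 called in Deiters' cells, the 5 without Deiters' cell library 2, which added Hdac6 and Dnmt3bos; all genes gave 2401 to 2482 and 2221 to 2380, partners 14 to 16 and 4 to 6, and members past the adjusted p 21 to 24 and 15 to 17. With the lanes of 1 set alone, an alternative chosen after seeing the data, 10 members were called in pillar cells (Kmt2a, Kmt2c and Kmt2d added) versus 2 in Deiters' cells (Dnmt3b lost), 22 and 12 passed the adjusted p, and 2 partners were called in Deiters' cells. The lanes of the other set gave 6 and 3 members called and 20 and 17 past the adjusted p. With library number as a replicate block, 6 members were called in pillar cells and 3 called in Deiters' cells, the one lost being Smarca5-ps, and 2450 and 2253 of all genes. The numbers do not mark shared animals in the labels. Deviations of same-numbered libraries correlated at -0.286, 0.38 and 0.318, and those of differently numbered libraries at -0.407 to 0.347. The members' median difference ran from 0.045 to 0.189 over the alternatives. Members under about 1 RPKM are limited by reads.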
